A study of Mus musculus with 27 samples.

Results

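Transcript levels of 10 genes of the insulin-like growth factor (IGF) pathway were examined among the 23279 genes measured by RNA sequencing. The genes were Igf1, Igf1r, Insr, Irs1, Irs2, Igfbp2, Igfbp3, Igfbp4, Igfbp5 and Igfbp7, listed by name with no threshold on their values. They were chosen with earlier results of these data known. The study asked how closely limb bud tissue made from mouse embryonic stem (ES) cells matches limb buds of the embryo. ES–FLB and ES–HLB were limb bud mesenchyme of forelimb and hindlimb type made from the line EB5 Hand2::GFP +/-, in which 1 allele of Hand2 carries a green fluorescent reporter, and GFP-positive cells were sorted at day 9 of culture. Both types (together ES–LBs) received BMP4 with Matrigel, then LDN193189 and Wnt3, in a medium with an insulin, transferrin and selenium supplement and hydrocortisone. Retinoic acid was given for the forelimb type, and its antagonist AGN193109 for the hindlimb type. The 7 embryonic groups were unsorted tissues of Slc:ICR mice: forelimb buds (FLB) and hindlimb buds (HLB) of an early stage labelled E10.0, FLBs and HLBs of E10.5, and 3 further E10.5 tissues, namely branchial arch (BA), the cardiac region (Ca) and the tail bud (TB). The single ES line, culture, sorting and mouse strain all differ between ES–LBs and embryos and cannot be told apart. In such bulk samples, more cells of a type and more RNA per cell cannot be told apart either.

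Each group had 3 libraries. The ES–LB cells were sorted from pooled aggregates, and the embryonic tissues came from 3 embryos, but whether each library was 1 of these or a pool is not given in the sources used here, so p-values measure the spread between libraries, which may be technical. Values are reads per 1000000 reads of the library (CPM) rescaled between libraries. In replicate 2 of the E10.5 HLBs at least 99.5% of the genes on chromosomes 5 to 9, X and Y were listed at 0. That library was left out, so 26 libraries were used and the E10.5 HLBs had n = 2. Depth was 19642246 to 22142302 reads in the early limb buds and 5543755 to 8541931 reads in the other groups, so depth moves with stage. The 9 limb mesenchyme markers (Prrx1, Hand2 and others) summed to 1477 to 2079 CPM in limb buds and ES–LBs and to 1579 to 1625 CPM in BA. Ca had 465 to 581 CPM and TB 459 to 504 CPM. Single markers differed more than the sums. At an adjusted p under 0.05 (limma), 5 were higher and 3 lower in ES–FLB than in early FLBs, where 82% of all genes passed. In ES–HLB against early HLBs 5 were higher and 4 lower, where 78.3% of all genes passed. Cardiomyocyte markers summed to 10135 to 11970 CPM in Ca against at most 15.2 CPM elsewhere. Tail bud and neural tube markers summed to 243 to 276 CPM in TB and to at most 35.0 CPM elsewhere. One of the 3 Ca libraries held 1639 CPM of endoderm and liver markers, against a lowest of 41.5 CPM in that group.

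IGF1 and IGF2 are secreted peptides that promote growth of the embryo. They bind the receptor tyrosine kinase IGF1R, a close relative of the insulin receptor INSR, and insulin binds both receptors when abundant. The activated receptors phosphorylate the docking proteins IRS1 and IRS2, which recruit PI3 kinase and so activate AKT. IGF binding proteins hold the ligands outside the cell, limiting or prolonging their action, and secreted proteases cut the binding proteins to free the ligands. IGFBP7 differs from the others in binding IGFs only weakly. In the limb bud, IGF signals act on outgrowth and later on cartilage growth.

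All 10 genes are protein coding and lie, in GRCm38 (mm10) coordinates with GENCODE M21 annotation, on 6 chromosomes. Igfbp2 (chr1:72824503-72852474, plus strand) and Igfbp5 (chr1:72857932-72874884, minus strand) are neighbours. The others are Irs1 (chr1:82233101-82291416), Igfbp7 (chr5:77349240-77408041), Igf1r (chr7:67952827-68233668), Insr (chr8:3122061-3279617), Irs2 (chr8:10984681-11008458), Igf1 (chr10:87858265-87937042), Igfbp3 (chr11:7206086-7213923) and Igfbp4 (chr11:99041244-99054392). The span of the Irs2 gene shares 609 bases with that of 9530052E02Rik, and the span of Igfbp7 shares 85 bases with that of Polr2b, both on the opposite strand. Whether exons overlap there was not examined. Because the strand setting of the counting is not given in the sources used here, any reads within the shared bases cannot be told apart.

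The 250 bases before a start given by RefSeq (GRCm38.p6, 5′ to 3′ on the gene's strand) are shown for the 3 genes with the largest differences between ES–LBs and early limb buds, Igf1, Irs2 and Igfbp3, and for Igfbp7, which was abundant in 1 tissue. For Irs2 and Igfbp7 this is the outermost RefSeq start, for Igf1 a start 2846 bases inside the gene, and for Igfbp3 a start 1575 bases inside the RefSeq gene that is the outermost in GENCODE. Capitals mark a GC box on either strand, the binding letters of SP1-like factors.
Igf1 (chr10:87860861-87861110, plus strand): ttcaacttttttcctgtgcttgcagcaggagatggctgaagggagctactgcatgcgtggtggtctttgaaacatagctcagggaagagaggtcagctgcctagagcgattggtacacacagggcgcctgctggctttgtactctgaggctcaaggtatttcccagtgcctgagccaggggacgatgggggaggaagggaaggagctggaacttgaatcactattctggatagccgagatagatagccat
Irs2 (chr8:11008930-11009179, minus strand): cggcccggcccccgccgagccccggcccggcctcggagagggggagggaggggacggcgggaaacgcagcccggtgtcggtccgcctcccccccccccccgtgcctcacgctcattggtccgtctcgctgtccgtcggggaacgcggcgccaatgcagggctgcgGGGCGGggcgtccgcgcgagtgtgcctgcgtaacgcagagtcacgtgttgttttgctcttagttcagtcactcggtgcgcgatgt
Igfbp3 (chr11:7213924-7214173, minus strand): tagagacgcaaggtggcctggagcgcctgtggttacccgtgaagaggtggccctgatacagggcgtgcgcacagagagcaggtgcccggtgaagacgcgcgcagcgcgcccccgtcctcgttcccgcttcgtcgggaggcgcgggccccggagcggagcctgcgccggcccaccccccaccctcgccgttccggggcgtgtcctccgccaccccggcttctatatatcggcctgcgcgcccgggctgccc
Igfbp7 (chr5:77408046-77408295, minus strand): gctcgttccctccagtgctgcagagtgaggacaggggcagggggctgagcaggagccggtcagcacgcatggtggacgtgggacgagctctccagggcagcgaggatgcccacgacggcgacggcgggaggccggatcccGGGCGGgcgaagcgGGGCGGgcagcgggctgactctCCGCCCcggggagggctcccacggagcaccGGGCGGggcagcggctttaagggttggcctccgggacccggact
The Igf1 stretch has 52.8% G and C, close to the median of 52.4% over 32851 promoters. Those of Irs2, Igfbp3 and Igfbp7 have 72.8%, 73.2% and 74.0%. On both strands, 5 motifs were searched in the 10 promoter stretches found for the genes, of which 2 belong to Igfbp2, while Insr has no entry and the other genes have 1 start each in the table used. The GC box (GGGCGG) was in 5 of 10 against 32.7% of all promoters, with 1 copy in Irs2 and 4 copies in Igfbp7. The TATA box (TATAAA) was in 1 of 10 against 12.4%, and the glucocorticoid receptor core (AGAACA) in 1 of 10 against 16.1%, in Igfbp4 and Igfbp2 respectively. The forkhead core (GTAAACA) and the CRE (TGACGTCA) were in 0 of 10, against 3.17% and 1.55%. None of the 5 motifs was present in the Igf1 and Igfbp3 stretches. These are matches of letters only.

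Igf1 and Igfbp7 varied most across the 9 groups. The highest group mean of Igf1 was 38.8 times the lowest, on the CPM scale, and only 2.87% of 14451 genes had a wider range of log2 group means. Receptor transcripts were nearly level, with a ratio of 1.45 for Igf1r and 1.29 for Insr, and 89.7% and 97.0% of genes had a wider range. The docking proteins and the abundant binding proteins lay between, with ratios of 2.66 (Irs1), 3.17 (Irs2), 3.19 (Igfbp2), 4.35 (Igfbp3), 2.43 (Igfbp4) and 4.17 (Igfbp5). On a scale of CPM per kb of merged exons, Igfbp4 was the highest of the 10 genes in the 4 limb bud groups, in both ES–LBs and in BA, at 165 to 221 CPM per kb. Igfbp5 led in Ca at 273 CPM per kb and Igfbp2 in TB at 156 CPM per kb. Igfbp7 was the lowest of the 10 in 8 of the 9 groups, at 0.131 to 1.58 CPM per kb, and ranked 4 in Ca at 18.9 CPM per kb.

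**Figure D1:**
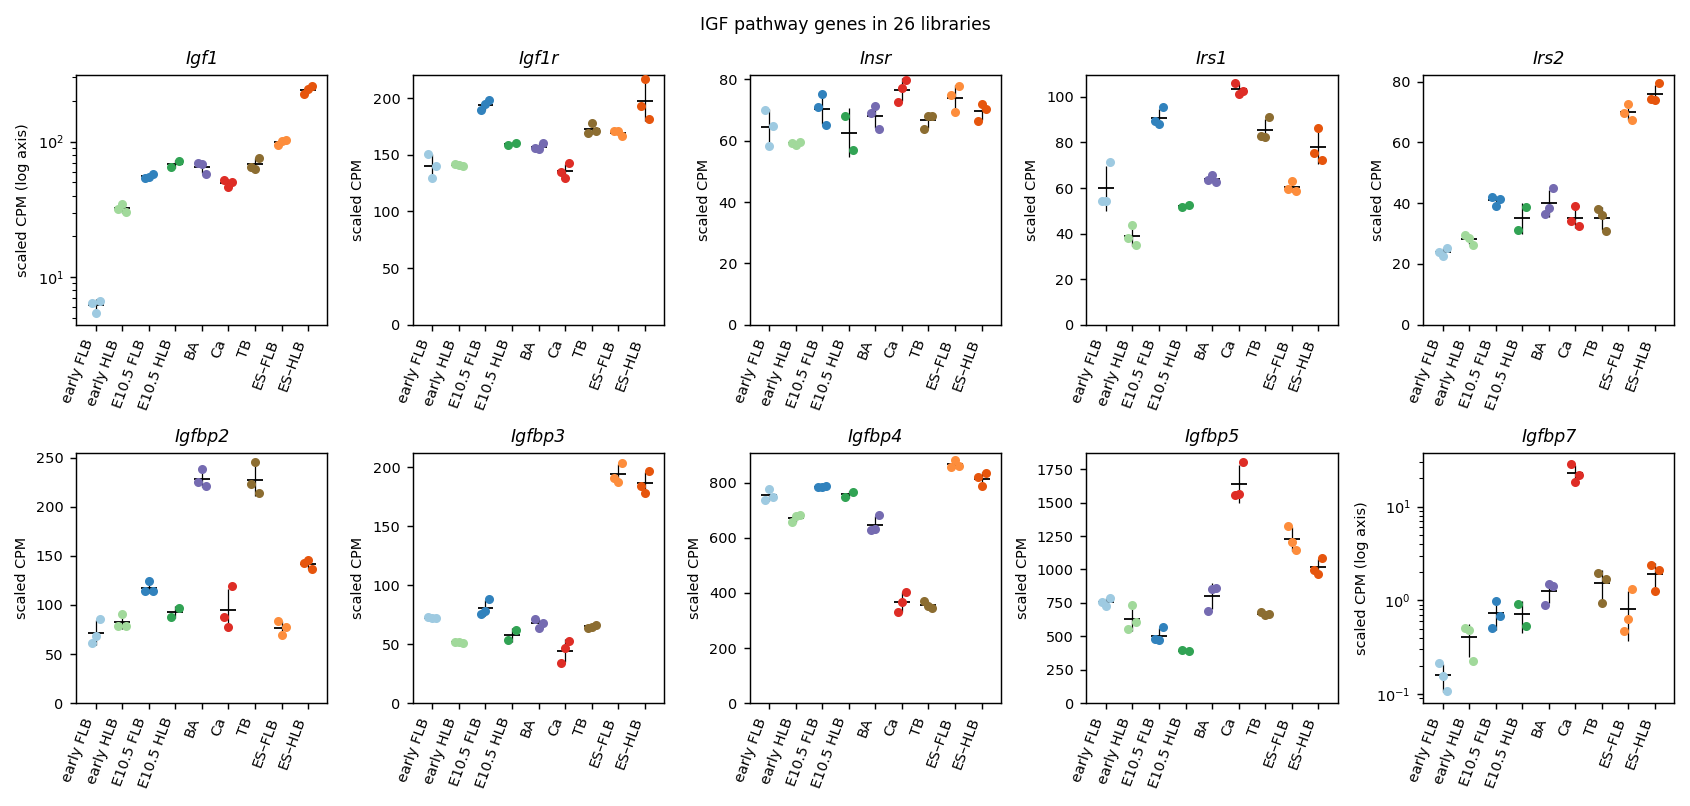
Level of each gene in every library (points, scaled CPM), with the group mean (horizontal line) and SD (vertical line). Axes start at 0 except for Igf1 and Igfbp7, which have log axes. Igf1 is lowest in the early FLBs and highest in ES–HLB, Igfbp7 stands apart in Ca, and Igf1r and Insr differ little between groups.

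The first question was where ES–LBs differ from the limb buds they model. Igf1, Irs2, Igfbp3 and Igfbp5 were higher in ES–LBs than in limb buds of the same type in all 4 comparisons (early and E10.5, forelimb and hindlimb). Igfbp4 was higher in all 4 too, by 1.07- to 1.21-fold. Igf1r, Irs1 and Igfbp2 were higher in ES–HLB than in HLBs of both stages and lower in ES–FLB than in E10.5 FLBs. Insr passed in 2 of the 4 comparisons, with log2 values of 0.07 to 0.23. Igfbp7 is left out of these counts, since it was tested against HLBs only because its ES–HLB libraries passed the filter on low values. Against early FLBs, 7 of the 9 genes tested in ES–FLB were higher at an adjusted p under 0.05 and 0 were lower, while 82% of all 13140 genes tested passed. Against early HLBs, 9 of 9 were higher in ES–HLB, with 78.3% of all genes passing. Against E10.5 FLBs, 5 of 9 were higher and 3 lower (background 71.7%), and against E10.5 HLBs, 8 of 9 were higher and 0 lower (background 72%). Because so many genes pass, the share of the IGF genes past the threshold is no result by itself. With at least a 2-fold difference as well, 3, 3, 2 and 4 of the 9 IGF genes passed in these 4 comparisons, all of them higher, against backgrounds of 29.8%, 26%, 18.4% and 19.7%. The median log2 difference of the 9 was 0.28, 0.78, 0.14 and 0.61, against medians over all genes of -0.08, -0.07, -0.02 and -0.02. Because the genes were chosen with earlier results of these data known, these shares and medians only describe them.

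Markers of other cell types also differed in these comparisons. The 5 endoderm and liver markers (Foxa2, Alb, Afp, Ttr and Apoa1) summed to 64.1 to 77.3 CPM in ES–FLB and 48.5 to 66.1 CPM in ES–HLB, against at most 6.22 CPM in any limb bud library, and in E10.5 FLBs and HLBs 4 of the 5 were listed at 0. Endothelial markers summed to 28.1 to 50.0 CPM in ES–LBs and 324 to 482 CPM in limb buds, and the 6 erythroid markers to 5.49 to 157 CPM and 2309 to 6781 CPM. Liver cells are a known source of IGF1 and of several binding proteins. The part of these cells in the differences of Igf1, Irs2 and the binding proteins was not tested.

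The scale moves these backgrounds. With CPM as deposited, the median log2 difference of all genes became 0.23 and 0.18 against early FLBs and HLBs and 0.13 against E10.5 HLBs. The share of higher genes among those past the threshold then went from 45.6% to 62.4%, from 45.3% to 60.6% and from 48.3% to 60.1%. With CPM as deposited, Irs1 and Igfbp2 were also past the threshold in ES–FLB against early FLBs (adjusted p = 0.0107 and 0.0228 by limma). Their log2 differences were then 0.33 and 0.42, against 0.02 and 0.11 with rescaled CPM. Insr passed as well in ES–HLB against E10.5 HLBs with CPM as deposited (0.31, adjusted p = 0.000881 by limma).

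Igf1 encodes the ligand IGF1. Its levels were 6.48, 5.42 and 6.73 CPM in the early FLBs and 94.9, 100.5 and 102 CPM in ES–FLB. Early HLBs had 32.0, 34.4 and 30.1 CPM, and ES–HLB had 224, 244 and 255 CPM. E10.5 FLBs had 53.8, 54.4 and 58.0 CPM and E10.5 HLBs 65.0 and 71.4 CPM. Every ES–LB library lay above every embryonic library of the series, and ES–HLB lay above ES–FLB. The log2 difference was 3.90 ± 0.09 (SE, n = 3 and 3), or 14.9-fold, for ES–FLB against early FLBs (limma, adjusted p = 1.31e-15). It was 2.89 ± 0.07, or 7.40-fold, for ES–HLB against early HLBs (limma, adjusted p = 1.56e-13). Against E10.5 limb buds it was 0.84 ± 0.06 for ES–FLB and 1.81 ± 0.06 for ES–HLB, 1.78-fold and 3.51-fold. These 4 calls held in every alternative and with each replicate left out in turn.

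Macrophages are known to express Igf1, and the early FLBs had the fewest macrophage transcripts among the embryonic groups. The 5 measured markers of a list of 6 (Csf1r, Ptprc, Cx3cr1, C1qa and Fcgr1) summed to 0.431 to 0.691 CPM in early FLBs, 5.46 to 7.41 CPM in early HLBs, 13.8 to 15.3 CPM in E10.5 FLBs and 7.33 to 11.7 CPM in E10.5 HLBs. BA, Ca and TB had 8.17 to 28.5 CPM. ES–FLB had 0.119 to 0.255 CPM, with 2 of the markers listed at 0 in every library, and ES–HLB 1.87 to 2.49 CPM with 1 at 0. Igf1 was highest in the ES–LBs, where the sum was below that of early FLBs in ES–FLB and above it in ES–HLB. Among embryonic groups, early FLBs had both the lowest Igf1 and the lowest sum. E10.5 HLBs had a lower sum than E10.5 FLBs and a higher mean of Igf1 (68.2 against 55.4 CPM). The part of these cells in the embryonic levels of Igf1 was not tested.

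**Figure D2:**
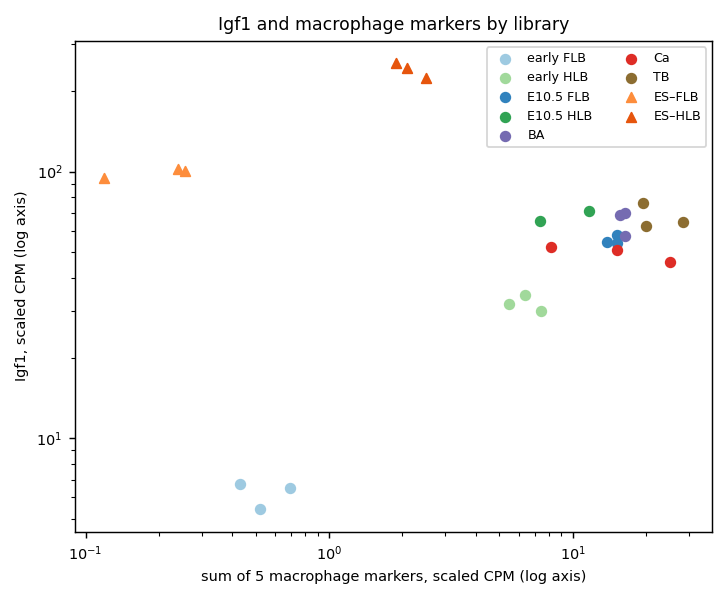
Igf1 (scaled CPM, log axis) against the sum of 5 macrophage markers (scaled CPM, log axis) in each of the 26 libraries, with ES–LBs as triangles and embryonic groups as circles. The early FLBs are low on both axes, the ES–LBs are high in Igf1 at 0.119 to 2.49 CPM of markers, and the other embryonic groups have 5.46 to 28.5 CPM of markers.

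The receptors moved little. Igf1r, the IGF1 receptor, had 171, 171 and 166 CPM in ES–FLB and 193, 216 and 182 CPM in ES–HLB. Early FLBs had 150, 130 and 140 CPM, early HLBs 142, 141 and 141 CPM, E10.5 FLBs 189, 195 and 198 CPM, and E10.5 HLBs 159 and 161 CPM. ES–FLB lay above the early FLBs (log2 difference 0.28 ± 0.05, limma adjusted p = 0.000151) and below the E10.5 FLBs (-0.20 ± 0.04, limma adjusted p = 0.000188), with no overlap of libraries. ES–HLB lay above both HLB stages, by 0.48 ± 0.06 and 0.30 ± 0.06. Insr, the insulin receptor, had group means of 59.2 to 76.5 CPM, and each group overlapped its neighbour in the order of means. It was higher in ES–HLB than in early HLBs by 0.23 ± 0.06 (log2, limma adjusted p = 0.00259), and against E10.5 limb buds the values were 0.07 ± 0.07 in ES–FLB and 0.16 ± 0.08 in ES–HLB (limma adjusted p = 0.329 and 0.0723). For ES–FLB against early FLBs the log2 difference of Insr was 0.20 ± 0.07 (limma adjusted p = 0.0146). That call was lost without early FLB replicate 2 (adjusted p = 0.0910 by limma), without ES–FLB replicate 3 (adjusted p = 0.0706 by limma) and without limma's trend and robust estimation (adjusted p = 0.0662). Insr in ES–HLB against E10.5 HLBs passed without E10.5 HLB replicate 1 (adjusted p = 0.00742 by limma) or ES–HLB replicate 1 (adjusted p = 0.0414 by limma).

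Among the docking proteins, Irs2 was higher than in limb buds in both ES–LB types, and Irs1 in ES–HLB. Irs2 had 69.7, 72.5 and 67.5 CPM in ES–FLB and 74.3, 74.0 and 79.5 CPM in ES–HLB. The limb buds had 24.0, 22.6 and 25.2 CPM (early FLBs), 29.5, 28.6 and 26.2 CPM (early HLBs), 42.1, 39.1 and 41.5 CPM (E10.5 FLBs) and 31.3 and 38.6 CPM (E10.5 HLBs). All ES–LB libraries were above all embryonic libraries, the highest of which was a BA library at 45.0 CPM. Log2 differences of Irs2 were 1.53 ± 0.07 and 1.42 ± 0.07 against early FLBs and HLBs, and 0.77 ± 0.07 and 1.11 ± 0.09 against E10.5 FLBs and HLBs (limma, adjusted p of at most 1.93e-10). Irs1 had 59.6, 63.1 and 58.9 CPM in ES–FLB against 54.3, 54.3 and 71.4 CPM in early FLBs, which overlapped (log2 difference 0.02 ± 0.10, limma adjusted p = 0.825). E10.5 FLBs had 89.5, 87.9 and 95.4 CPM of Irs1, and ES–FLB was lower than these by 0.58 ± 0.06 on the log2 scale (-0.58). In ES–HLB, with 75.6, 86.5 and 72.3 CPM, Irs1 was instead higher than in early HLBs (37.9, 43.7 and 35.1 CPM, log2 difference 1.00 ± 0.09) and E10.5 HLBs (51.5 and 52.4 CPM, 0.58 ± 0.08). The 71.4 CPM of early FLB replicate 3 weighs on Irs1 and, with 86.1 CPM, on Igfbp2. Without it the log2 difference of ES–FLB against early FLBs was 0.15 for Irs1 and 0.25 for Igfbp2 (limma adjusted p = 0.0480 and 0.00762).

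Igfbp3, the main carrier of IGFs in blood, was at least 2-fold higher in ES–LBs in all 4 comparisons. ES–FLB had 191, 188 and 204 CPM and ES–HLB 184, 178 and 197 CPM. The limb buds had 73.2, 72.0 and 72.6 CPM (early FLBs), 52.2, 51.6 and 51.1 CPM (early HLBs), 75.7, 77.9 and 88.7 CPM (E10.5 FLBs) and 53.9 and 62.4 CPM (E10.5 HLBs). The highest embryonic library, an E10.5 FLB, had less than any of the 6 ES–LB libraries. The folds were 2.66 (ES–FLB) and 3.58 (ES–HLB) against early limb buds, and 2.40 and 3.20 against E10.5 limb buds. In log2 these were 1.41 ± 0.05, 1.84 ± 0.06, 1.26 ± 0.06 and 1.68 ± 0.07 (limma, adjusted p of at most 2.18e-12).

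Igfbp5, the most conserved binding protein and one bound by extracellular matrix, had 1328, 1205 and 1148 CPM in ES–FLB and 993, 969 and 1085 CPM in ES–HLB. Early FLBs had 759, 730 and 784 CPM and early HLBs 553, 731 and 604 CPM, and E10.5 FLBs had 478, 471 and 568 CPM and E10.5 HLBs 395 and 391 CPM. All ES–LB libraries were above all limb bud libraries, and Ca was higher still. The log2 differences were 0.69 ± 0.05 and 0.70 ± 0.10 against early FLBs and HLBs and 1.28 ± 0.10 and 1.37 ± 0.04 against E10.5 FLBs and HLBs, all past the threshold by limma. Its neighbour Igfbp2 did not follow it. Igfbp2 had 83.7, 69.6 and 77.3 CPM in ES–FLB, within the early FLBs (61.3, 68.1 and 86.1 CPM) and below the E10.5 FLBs (114, 124 and 114 CPM, log2 difference -0.61 ± 0.06). ES–HLB had 142, 146 and 136 CPM of Igfbp2, above early HLBs (78.9, 90.6 and 78.2 CPM, 0.78 ± 0.06) and E10.5 HLBs (88.1 and 96.9 CPM, 0.61 ± 0.06). The ratio of Igfbp5 to Igfbp2 CPM was 14.9 to 17.3 in ES–FLB, 9.11 to 12.4 in early FLBs and 3.79 to 4.97 in E10.5 FLBs, and 6.63 to 7.96 in ES–HLB, 7.01 to 8.08 in early HLBs and 4.03 to 4.48 in E10.5 HLBs.

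Igfbp4, which inhibits IGF action until it is cut by PAPPA, had group means of 673 to 867 CPM in limb buds and ES–LBs. Its differences were small, with log2 values of 0.20 ± 0.04 and 0.28 ± 0.04 against early FLBs and HLBs and 0.14 ± 0.03 and 0.10 ± 0.04 against E10.5 FLBs and HLBs. The last of these (limma adjusted p = 0.0191) lost its call without E10.5 HLB replicate 1 (adjusted p = 0.112 by limma) and without ES–HLB replicate 3 (adjusted p = 0.124 by limma). It was also lost without limma's trend and robust estimation (adjusted p = 0.210) and with all 26 libraries in one limma model (adjusted p = 0.0772). Igfbp7 was near the detection limit. It had 4, 3 and 2 reads in early FLBs, 10, 9 and 4 reads in early HLBs, 3, 6 and 4 reads in E10.5 FLBs and 5 and 3 reads in E10.5 HLBs. ES–FLB had 4, 5 and 11 reads and ES–HLB 19, 9 and 18 reads. Because Igfbp7 passed the filter only through ES–HLB, its log2 differences of 1.39 ± 0.25 and 0.97 ± 0.31 against early and E10.5 HLBs are given as values. The second lost its call without E10.5 HLB replicate 3 (adjusted p = 0.0656 by limma).

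**Figure D3:**
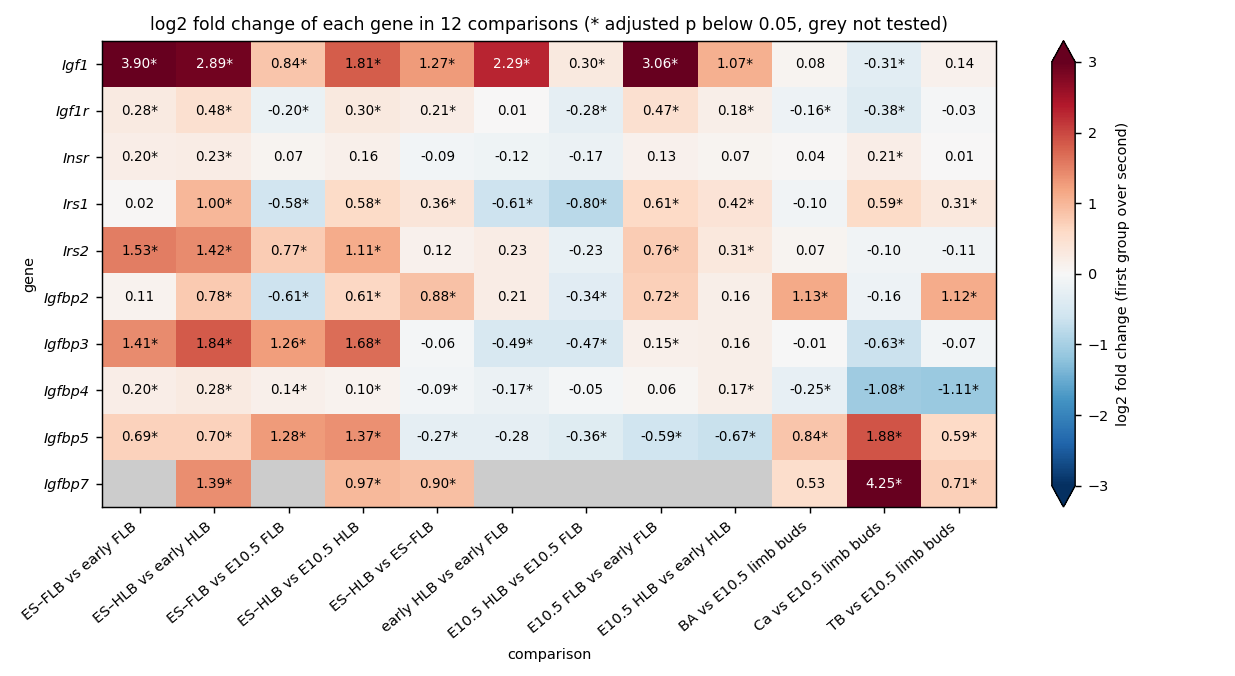
Log2 fold change of each gene (rows) in 12 comparisons (columns), first group over second, with red for higher and blue for lower. Asterisks mark an adjusted p below 0.05 (limma), and grey marks genes that were not tested. The colour scale ends at 3 in both directions. Igf1, Irs2, Igfbp3 and Igfbp5 are red in all 4 columns of ES–LBs against limb buds.

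Per kb, Igfbp4 held a smaller and Igfbp3 a larger share of the 5 binding protein transcripts in ES–LBs than in limb buds. Igfbp4 made up 40.9% ± 1.6 (SD, n = 3) of their summed CPM per kb in ES–FLB and 38.8% ± 0.4 in ES–HLB, against 49.1% to 56.7% in the 4 limb bud groups. Igfbp3 made up 11.5% ± 0.7 and 11.1% ± 0.3 in ES–FLB and ES–HLB, against 4.73% to 6.59% in limb buds. The share of Igfbp5 was 32.3% ± 1.1 in early FLBs, 21.5% ± 1.8 in E10.5 FLBs, 29.9% ± 2.4 in early HLBs and 19.2% ± 0.7 in E10.5 HLBs, and it was 37.8% ± 1.8 in ES–FLB and 31.6% ± 1.0 in ES–HLB. Shares were not tested, and no library of ES–LBs overlapped a limb bud library in the share of Igfbp3 or Igfbp4.

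**Figure D4:**
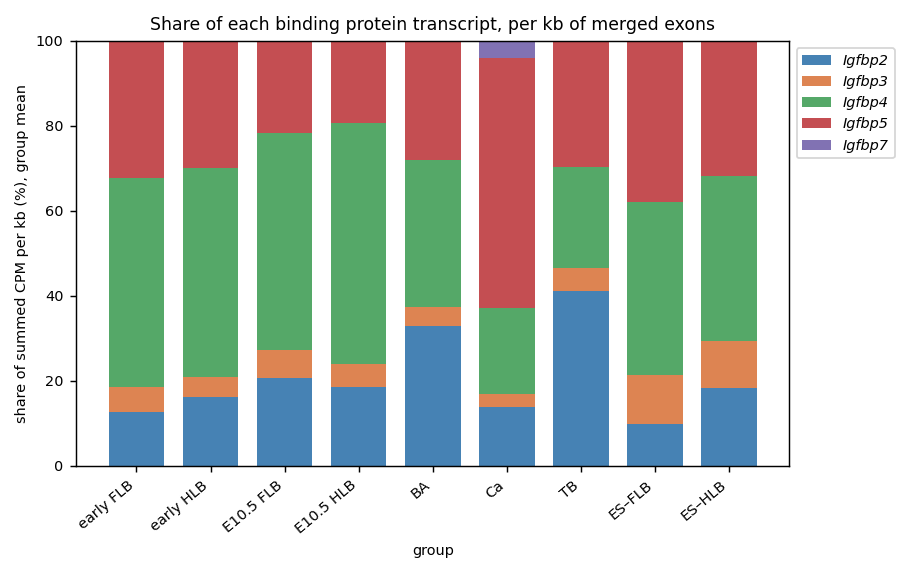
Share of each of the 5 binding protein transcripts (stacked bars, group means, %) in their summed CPM per kb of merged exons, for the 9 groups. Igfbp4 is the largest part in limb buds, Igfbp5 in Ca and Igfbp2 in TB, and Igfbp3 is about 11% in both ES–LBs.

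The second question was how forelimb and hindlimb differ, in culture and in the embryo. Igf1 was higher in the hindlimb type throughout, and most so in the early limb buds. In ES–HLB it was 2.42-fold the level of ES–FLB (log2 1.27 ± 0.05, limma adjusted p = 7.32e-19), and in early HLBs 4.88-fold the level of early FLBs (2.29 ± 0.10, limma adjusted p = 1.23e-07). At E10.5 the difference was 0.30 ± 0.08 (1.23-fold, limma adjusted p = 0.00329). That call was lost without E10.5 HLB replicate 3 (0.23, adjusted p = 0.0875 by limma) and without limma's trend and robust estimation (adjusted p = 0.0819). It was also lost when replicate 2 of the E10.5 HLBs, with 56.3 CPM of Igf1, was put back (0.18, adjusted p = 0.0643 by limma). The hindlimb minus forelimb difference of Igf1 was smaller in culture than between early limb buds, by 1.01 ± 0.11 in log2 (-1.01, limma interaction, adjusted p = 1.10e-06). The early FLBs and HLBs shared 1 stage label, but the study describes the HLBs as somewhat older, so limb type and stage cannot be told apart in the early pair. In culture, limb type cannot be told apart from treatment with retinoic acid or AGN193109.

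In ES–HLB against ES–FLB, 4 of 9 genes were higher and 2 lower, against a background of 25.1% of genes past the threshold. Besides Igf1 these were Igfbp2 (log2 0.88 ± 0.06, 1.84-fold), Irs1 (0.36 ± 0.07) and Igf1r (0.21 ± 0.05) on the higher side and Igfbp5 (-0.27 ± 0.07) and Igfbp4 (-0.09 ± 0.03) on the lower. Igfbp7, at 0.90 ± 0.29, is not counted because 3 ES–HLB libraries and only 1 ES–FLB library reached the 1 CPM of the filter. Irs2, Igfbp3 and Insr did not pass (log2 0.12 ± 0.06, -0.06 ± 0.05 and -0.09 ± 0.06). Markers of other cell types differed too. All 4 erythroid markers tested were higher in ES–HLB, and of 5 endoderm and liver markers 2 were higher and 2 lower. The part of such cells in these differences was not tested. The calls of Igfbp4 and Igfbp5 were lost without ES–FLB replicate 2 (limma adjusted p = 0.120 and 0.0655). Igfbp4 also lost its call without ES–FLB replicate 3 or ES–HLB replicate 2 (limma adjusted p = 0.0659 and 0.132), and Igfbp5 without ES–HLB replicate 1 or 2 (limma adjusted p = 0.160 and 0.0931). Without limma's trend and robust estimation Igf1r, Igfbp4 and Igfbp5 were lost (adjusted p = 0.111, 0.287 and 0.0640), and with all 26 libraries in one limma model Igfbp4 and Igfbp5 (adjusted p = 0.184 and 0.0713).

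In early HLBs against early FLBs, 1 of 9 genes was higher (Igf1) and 3 were lower, against a background of 20.1%. Igfbp3 was lower by 0.49 ± 0.05 in log2 (-0.49, limma adjusted p = 8.92e-05), and its libraries did not overlap. Irs1 was lower by 0.61 ± 0.12 (-0.61, limma adjusted p = 0.0117), a call lost without early HLB replicate 1 (adjusted p = 0.0767 by limma). Igfbp4 was lower by 0.17 ± 0.04 (-0.17, limma adjusted p = 0.0234), a call lost without early FLB replicate 2 or 3 or early HLB replicate 3 (limma adjusted p = 0.0836, 0.0709 and 0.0672) and without limma's trend and robust estimation (adjusted p = 0.0777). Igfbp2 and Igfbp5, at 0.21 ± 0.13 and -0.28 ± 0.09, passed only without early FLB replicate 3 (adjusted p = 0.0212 by limma) and without early HLB replicate 2 (adjusted p = 0.00129 by limma). Of all genes past the threshold 44.9% were higher in HLBs, and 61.8% with CPM as deposited.

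In E10.5 HLBs against E10.5 FLBs, Igf1 was higher and 5 of 9 genes were lower, against a background of 26.1%. These were Irs1 (-0.80 ± 0.07), Igfbp3 (-0.47 ± 0.08), Igfbp5 (-0.36 ± 0.07), Igfbp2 (-0.34 ± 0.06) and Igf1r (-0.28 ± 0.05), all log2. Of the 6 calls only that of Irs1 was kept without limma's trend and robust estimation, where Igf1r, Igfbp2, Igfbp3 and Igfbp5 had adjusted p = 0.0599, 0.0680, 0.0664 and 0.10. With all 26 libraries in one limma model the call of Igfbp2 was lost (adjusted p = 0.0957). Irs1 and Igfbp3 were past the threshold on the lower side at both stages. In the left-out library Irs1 was at 55.2 CPM and Igfbp3 at 58.4 CPM, below all 3 E10.5 FLBs. Irs2 and Insr, at -0.23 ± 0.10 and -0.17 ± 0.08, did not pass, but Irs2 passed without E10.5 HLB replicate 3 (adjusted p = 0.0119 by limma) and Insr without E10.5 HLB replicate 1 (adjusted p = 0.0134 by limma) or E10.5 FLB replicate 3 (adjusted p = 0.0462 by limma). Of all genes past the threshold 58.3% were higher in HLBs, and 31.1% with CPM as deposited, where Igfbp5 was not past the threshold (adjusted p = 0.0715 by limma).

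The limb type difference differed between culture and early embryo for 4 of 9 genes, Igfbp7 again not counted, against a background of 22.6%. Irs1 was higher in ES–HLB than in ES–FLB but lower in early HLBs than in early FLBs, a difference of 0.97 ± 0.15 in log2 (limma interaction, adjusted p = 0.000256). For Igfbp2 the difference was 0.67 ± 0.15 (limma interaction, adjusted p = 0.00795) and for Igfbp3 0.43 ± 0.07 (limma interaction, adjusted p = 0.000177) (-0.06 in culture and -0.49 in the early limb buds). The value for Igf1r was 0.20 ± 0.08 (adjusted p = 0.0911 by limma), which passed without early FLB replicate 2 (adjusted p = 0.0323 by limma) or ES–HLB replicate 3 (adjusted p = 0.0356 by limma). Of all genes past the threshold 56.1% had a larger value in culture, and 44.5% with CPM as deposited.

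The third question was how the limb buds changed with stage. From early to E10.5 FLBs, Igf1 rose 8.36-fold (log2 3.06 ± 0.10, limma adjusted p = 5.34e-14), and from early to E10.5 HLBs it rose 2.1-fold (1.07 ± 0.09, limma adjusted p = 2.48e-05). The E10.5 levels in FLBs and HLBs were 55.4 ± 2.3 (SD, n = 3) and 68.2 ± 4.5 CPM (n = 2). The rise was smaller in HLBs by 1.99 ± 0.13 in log2 (-1.99, limma interaction, adjusted p = 1.38e-08). By the study's description the early HLBs were somewhat older, so their interval to E10.5 was shorter than that of the FLBs. Length of interval and limb type cannot be told apart here. Igfbp5 fell in both limb types, by 0.59 ± 0.07 (-0.59) in FLBs and 0.67 ± 0.11 (-0.67) in HLBs (limma adjusted p = 1.73e-05 and 0.00334).

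In FLBs 6 of 9 genes rose and 1 fell with stage, against a background of 65.8%. Irs2 rose by 0.76 ± 0.08, Igfbp2 by 0.72 ± 0.12, Irs1 by 0.61 ± 0.10 and Igf1r by 0.47 ± 0.05 in log2. Igfbp3 was at 0.15 ± 0.06 (limma adjusted p = 0.0450), and lost its call without any 1 of early FLB replicates 1, 2 or 3 or E10.5 FLB replicate 3 (limma adjusted p = 0.0765, 0.0882, 0.0792 and 0.254). It was also lost with no filter on low genes, without limma's trend and robust estimation, and with all 26 libraries in one limma model (adjusted p = 0.0782, 0.114 and 0.198). Insr, at 0.13 ± 0.07, passed without early FLB replicate 1 (adjusted p = 0.0419 by limma). It also passed with CPM as deposited (0.37, limma adjusted p = 0.000472) and with a median of ratios scaling (0.21, limma adjusted p = 0.0184). Igfbp4, at 0.06 ± 0.04, did not pass with rescaled CPM (limma adjusted p = 0.176). Under these other scalings it did (0.30 and 0.14, limma adjusted p = 7.10e-07 and 0.00327). The median log2 change of all genes was -0.09, and 0.14 with CPM as deposited, where 66.0% of the genes past the threshold were higher at E10.5 instead of 39.0%. In HLBs 5 of 9 genes rose and 1 fell, against a background of 30.6%. The rises other than Igf1 were Irs1 (0.42 ± 0.10), Irs2 (0.31 ± 0.11), Igf1r (0.18 ± 0.05) and Igfbp4 (0.17 ± 0.05). The 4 were all lost without E10.5 HLB replicate 3, which left 2 genes (limma adjusted p = 0.0785, 0.351, 0.115 and 0.160). Without E10.5 HLB replicate 1, Irs1, Igf1r and Igfbp4 were lost (limma adjusted p = 0.0642, 0.0906 and 0.0959). Without early HLB replicate 2, Irs2, Igf1r and Igfbp4 were lost (limma adjusted p = 0.0704, 0.0660 and 0.0515) and Igfbp2 passed (adjusted p = 0.0426 by limma). Without early HLB replicate 3, Irs2, Igf1r and Igfbp4 were lost (limma adjusted p = 0.166, 0.10 and 0.0715). Without limma's trend and robust estimation Igf1r, Irs1, Irs2 and Igfbp4 were lost (adjusted p = 0.0865, 0.0504, 0.113 and 0.105), and Irs2 also with a pseudocount of 0.1 or no filter on low genes (limma adjusted p = 0.0508 and 0.0788). In HLBs the share of higher genes among those past the threshold was 31.8%, and 56.2% with CPM as deposited. There Igfbp2 and Igfbp3 passed too (0.27 and 0.27, limma adjusted p = 0.0264 and 0.0365).

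The change with stage differed between HLBs and FLBs for 4 of 9 genes, against a background of 24%, and the log2 change was smaller in HLBs for all 4. The interval from the early stage to E10.5 was shorter in HLBs by the study's description, which cannot be told apart from limb type. Besides Igf1 these were Igf1r (-0.29 ± 0.08, limma interaction, adjusted p = 0.00960), Irs2 (-0.46 ± 0.13, adjusted p = 0.0142 by limma) and Igfbp2 (-0.56 ± 0.16, adjusted p = 0.0256 by limma). Without E10.5 HLB replicate 1, Irs2 and Igfbp2 were lost (limma adjusted p = 0.120 and 0.115). Igfbp2 was also lost without early FLB replicate 2 or E10.5 FLB replicate 2 or 3 (limma adjusted p = 0.0599, 0.0549 and 0.0515) and without limma's trend and robust estimation (adjusted p = 0.0583). Of all genes past the threshold 59.3% changed more upward in HLBs, and 29.0% with CPM as deposited.

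The last question was how the other embryonic tissues compare with the mean of E10.5 limb buds. In Ca, Igfbp7 and Igfbp5 were far higher and Igfbp4 and Igfbp3 lower. Igfbp7 had 28.3, 18.5 and 21.8 CPM in Ca (222, 132 and 162 reads) against at most 2.37 CPM in any library of another group. Its log2 difference from E10.5 limb buds was 4.25 ± 0.24, or 19.0-fold (limma adjusted p = 5.29e-17). Igfbp7 is known as a product of vessel cells, and the 8 endothelial markers (Pecam1, Cdh5 and others) summed to 932 to 993 CPM in Ca, 279 to 482 CPM in the other embryonic groups and 28.1 to 50.0 CPM in ES–LBs. Of the 8, 7 were higher in Ca than in E10.5 limb buds and 1 was lower, by at least 2-fold, beside 76.9% of all genes past the threshold. All 8 were at 1 CPM or more in every group. ES–HLB had the second highest mean of Igfbp7, 1.91 ± 0.58 CPM (SD, n = 3), from 19, 9 and 18 reads. Its libraries overlapped those of TB, BA and ES–FLB. The part of endothelial cells in these levels was not tested.

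Igfbp5 had 1556, 1562 and 1802 CPM in Ca, above every other library (log2 1.88 ± 0.09, 3.67-fold). Irs1 was highest in Ca too, at 106, 101 and 103 CPM (0.59 ± 0.07). Igfbp4 was lower in Ca by 1.08 ± 0.04 (-1.08), Igfbp3 by 0.63 ± 0.09 (-0.63), Igf1r by 0.38 ± 0.05 (-0.38) and Igf1 by 0.31 ± 0.08 (-0.31). Insr was higher by 0.21 ± 0.06 (limma adjusted p = 0.00396), a call lost without E10.5 HLB replicate 3 (adjusted p = 0.0521 by limma) and with CPM as deposited (adjusted p = 0.0505 by limma). Igfbp2, at -0.16 ± 0.12, passed without Ca replicate 3 (-0.33, adjusted p = 0.00347 by limma). In all, 4 of 10 genes were higher and 4 lower in Ca, against a background of 76.9%.

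BA and TB shared a high level of Igfbp2, which in the embryo is expressed in many epithelia. BA had 226, 239 and 222 CPM and TB 223, 246 and 214 CPM of Igfbp2, above every library of the other groups. Log2 differences from E10.5 limb buds were 1.13 ± 0.12 in BA and 1.12 ± 0.12 in TB (limma adjusted p = 3.01e-07 and 1.49e-07). Surface epithelium markers summed to 273 to 301 CPM in BA and 237 to 265 CPM in TB, against 248 to 279 CPM in E10.5 limb buds. The ranges of these sums overlap, but single markers differed from E10.5 limb buds. Of the 7 markers, 2 were higher and 1 lower in BA, and 3 were higher and 3 lower in TB (backgrounds 33.4% and 46.2%). The part of epithelial cells in the levels of Igfbp2 was not tested. Igfbp5 was also higher, by 0.84 ± 0.09 in BA and 0.59 ± 0.09 in TB. Igfbp4 was lower by 0.25 ± 0.04 in BA (-0.25) and by 1.11 ± 0.04 in TB (-1.11), where it had 371, 353 and 345 CPM. Igf1 did not pass in either (0.08 ± 0.08 in BA and 0.14 ± 0.08 in TB). In TB it did pass with CPM as deposited (0.19, limma adjusted p = 0.0371). Putting back replicate 2 of the E10.5 HLBs had the same outcome (0.19, limma adjusted p = 0.0427). In all, 2 of 10 genes were higher and 2 lower in BA (background 33.4%), the other lower gene being Igf1r (-0.16 ± 0.05), whose call was lost with CPM as deposited (adjusted p = 0.118 by limma). In TB 4 were higher and 1 lower (background 46.2%), with Irs1 at 0.31 ± 0.07 and Igfbp7 at 0.71 ± 0.24. The call of Igfbp7 in TB was lost without TB replicate 1 or 3 or E10.5 HLB replicate 3 (limma adjusted p = 0.102, 0.0639 and 0.0636). Of all genes past the threshold 48.4% were higher in BA and 48.8% in TB, and 64.9% and 60.1% with CPM as deposited.

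A list of 37 other genes of the pathway gave the surroundings of these 10. In ES–FLB against early FLBs 17 of the 31 tested were higher and 11 lower, and in ES–HLB against early HLBs 18 of 30 were higher and 8 lower. Unlike Igfbp7 above, genes that passed the filter on low values only through ES–LB libraries are part of these counts and medians. These were Irs4 in both comparisons, Igfbp1 in that of ES–FLB and Pappa2 in that of ES–HLB, which could hardly be called lower. These are 90.3% and 86.7% past the threshold, beside 82% and 78.3% of all genes, so the share by itself is no result about the list. The median log2 difference of the list was 0.24 and 0.39, against -0.08 and -0.07 over all genes. This list too was chosen with earlier results known, so its medians only describe it. The ligand Igf2 and the receptor-binding inhibitor Grb10, both imprinted, were lower in ES–LBs (log2 -4.99 ± 0.05 and -5.17 ± 0.05 for Igf2, -7.41 ± 0.21 and -8.30 ± 0.07 for Grb10). Igf2 had 118 ± 10 and 98.6 ± 5.9 CPM (SD, n = 3) in ES–FLB and ES–HLB against 3736 ± 65 and 3558 ± 138 CPM in early FLBs and HLBs, and Grb10 had 9.57 ± 2.47 and 4.59 ± 0.22 CPM against 1671 ± 48 and 1609 ± 147 CPM. Insulin genes Ins1 and Ins2 were listed at 0 in all of these groups. Igf2r, the receptor that clears IGF2, was higher in ES–FLB and ES–HLB by 1.15 ± 0.09 and 1.10 ± 0.14 in log2.

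Among the proteases and their inhibitors, 3 of 5 were higher and 1 lower in ES–FLB, and 4 of 5 higher and 0 lower in ES–HLB, beside the same backgrounds of 82% and 78.3% past the threshold in either direction. The count in ES–HLB includes Pappa2, which was tested there only because its ES–HLB libraries passed the filter. Pappa, which cuts IGFBP4, had 20.2 ± 0.5 CPM (SD, n = 3) in ES–FLB and 16.1 ± 1.7 CPM in the hindlimb type against 1.60 ± 1.16 and 1.31 ± 0.11 CPM in early limb buds. The log2 differences were 3.44 ± 0.38 and 3.20 ± 0.16 (limma adjusted p = 0.000154 and 1.60e-10). Pappa2, which cuts IGFBP3 and IGFBP5, was higher by 3.87 ± 0.13 and 2.22 ± 0.20, and Htra1, another protease of binding proteins, by 1.80 ± 0.22 and 1.80 ± 0.19. Pappa2 also differed between the ES–LBs, being 6.14-fold lower in ES–HLB (-2.62 ± 0.12). TB and Ca had 18.3 ± 1.3 and 14.9 ± 1.6 CPM of Pappa, which overlapped ES–HLB.

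Of the 6 adaptors tested, 4 were higher and 2 lower in both ES–LB types, against these same backgrounds. The higher ones include Irs4, which was tested only because its ES–LB libraries passed the filter. Gab1, a docking protein of several receptors, was higher by 1.69 ± 0.06 and 2.04 ± 0.05 in log2 in ES–FLB and ES–HLB. Grb14, an inhibitor of the insulin receptor, was higher by 1.85 ± 0.15 and 0.97 ± 0.16. Irs4, the X-linked relative of Irs1, had 4.09 ± 1.13 and 11.8 ± 1.9 CPM against 0.123 ± 0.060 and 0.164 ± 0.062 CPM in early FLBs and HLBs, about the floor of 3 reads per library there. Of the 13 genes of the kinase branch, 7 were higher and 5 lower in ES–FLB and 7 higher and 3 lower in ES–HLB, again beside 82% and 78.3% of all genes past the threshold. The largest difference was in Pik3r1, the regulatory subunit of PI3 kinase, by 1.78 ± 0.06 and 0.85 ± 0.07, while Akt1 was lower by 0.54 ± 0.04 and 0.58 ± 0.05 (-0.54 and -0.58). Foxo3, a target of AKT, was higher by 0.85 ± 0.08 and 1.42 ± 0.09, and Foxo1 was lower by 0.29 ± 0.09 and 0.46 ± 0.09 (-0.29 and -0.46).

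**Figure D5:**
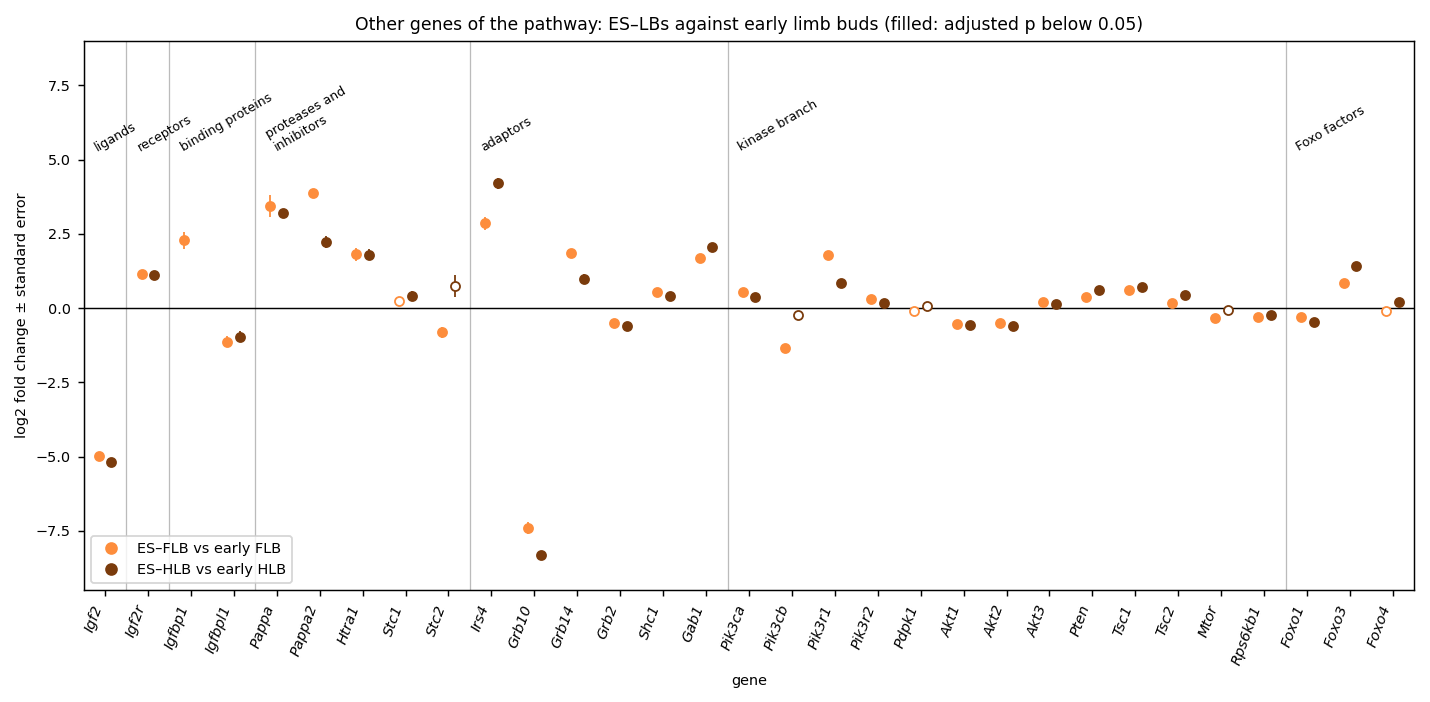
Log2 fold change with standard error of the tested genes of the pathway list in ES–FLB against early FLBs (orange) and ES–HLB against early HLBs (brown), grouped by role. Filled points have an adjusted p below 0.05 (limma). Igf2 and Grb10 are the lowest in both comparisons, and Pappa, Pappa2 and Irs4 are among the highest.

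Likeness to other genes was taken over the 9 group means of log2(CPM + 0.5). The 8874 candidates were genes whose group means spanned at least 1 log2 unit, so flatter profiles were not searched. Those most like Igf1 were Pacsin3 (Pearson r 0.990), Unc93b1 (0.950) and Dtx3l (0.938). For Irs2 they were Trhde (0.997), Stat2 (0.986) and Pdgfrl (0.985), for Igfbp3 Xrn1 (0.992), 4632415L05Rik (0.991) and Nf1 (0.990), and for Igfbp7 Lgals9 (0.989), Ggt5 (0.987) and Arl6ip5 (0.985). Among the 10 genes themselves, the closest pairs were Irs2 with Igfbp3 (r 0.864) and Irs2 with Igf1 (r 0.850), and the neighbours Igfbp2 and Igfbp5 had r -0.09. With 9 points and 2 of them cultures that differ from the rest in many genes, these values only describe the profiles.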

How the data were processed

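RNA was sequenced in 27 libraries, 3 for each of 9 groups taken from the labels. The authors made stranded, single-end mRNA libraries, mapped reads with HISAT2 2.0.4 to mm10, counted them with Cuffdiff, and deposited CPM per gene (1 value per library), with edgeR 3.16.2 named in their notes. The strand setting is not given in the sources used here. From the deposited CPM, an unweighted trimmed mean of log ratios rescaled the libraries (trimming 30% of log ratios and 5% of intensities on either side). A gene was tested if 3 or more of the libraries compared had at least 1 CPM. Tests used limma 3.58.1 in R 4.3.3, with trend and robust estimation, on log2(CPM + 0.5), so fold changes of low genes are understated. The Benjamini-Hochberg adjustment covered all genes tested, with a threshold of 0.05. CPM are not counts, so count tests were not run. Pairs of groups were fitted with their own libraries, and BA, Ca and TB with all 26. Standard errors are those of limma. Depth came from the spacing of low values, which is the worth of 1 read. Of all values above 0, 94.1% to 99.3% were then whole reads, and the floor of 3 reads was 0.153 to 0.549 CPM. Floors cover counting error only, since reads are not independent molecules. The fits were tested on simulated data. The IGF genes and all lists were chosen with earlier results of these data known. All 10 genes are named, and others of the pathway where they passed with at least a 2-fold difference or their role bears on one of the 10. Genes like each of the 10 were the 3 with the highest r. Figures were drawn with matplotlib 3.10.9.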

Additional observations from a re-analysis of the deposited data

Results flagged for a closer look

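Effects that differed between groups by a limma interaction test, with n = 2 or 3 libraries per group, were marked for a closer look. The hindlimb minus forelimb difference in ES–LBs differed from that in early limb buds for Igf1 (-1.01 in log2, adjusted p = 1.10e-06 by limma), Irs1 (0.97, adjusted p = 0.000256 by limma), Igfbp3 (0.43, adjusted p = 0.000177 by limma) and Igfbp2 (0.67, adjusted p = 0.00795 by limma). The change from early to E10.5 limb buds differed between HLBs and FLBs for Igf1 (-1.99, adjusted p = 1.38e-08 by limma), Igf1r (-0.29, adjusted p = 0.00960 by limma), Irs2 (-0.46, adjusted p = 0.0142 by limma) and Igfbp2 (-0.56, adjusted p = 0.0256 by limma). The early FLBs, with 5.42 to 6.73 CPM of Igf1, enter both results for Igf1. The labels give early FLBs and HLBs 1 stage, but the study describes the HLBs as somewhat older, with a shorter interval to E10.5. That cannot be told apart from limb type, and neither can the treatment with retinoic acid or AGN193109 in ES–LBs.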

How the results depend on the processing

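No IGF gene past the threshold changed direction under an alternative that was run, while 14 of 133 gene results changed sign under at least 1 of them, none of which had passed. Of 1230 gene results under other scalings, pseudocounts, filters and models, 1176 stayed on the same side of the threshold, 32 lost it and 22 gained it, and with 1 library left out 869 of 929 stayed. Counts of IGF genes past the threshold, which here include Igfbp7 where it was tested, moved by over 1.5 times without limma's trend and robust estimation, from 7 to 3 in ES–HLB against ES–FLB, from 6 to 1 in E10.5 HLBs against E10.5 FLBs and from 6 to 2 in E10.5 against early HLBs. With 1 replicate left out they ranged from 4 to 6 in ES–HLB against ES–FLB, from 2 to 6 in E10.5 against early HLBs, and from 2 to 4 for the stage change of HLBs against FLBs. Such fits with 1 library of E10.5 HLBs assume that it varies like the other libraries. At an adjusted p under 0.001, chosen after seeing the data, 6, 9, 8 and 7 IGF genes passed in ES–FLB against early FLBs, ES–HLB against early HLBs, and the same against E10.5. For the alternative settings of this section, the share of all genes past the threshold is not given. The counts therefore show only how calls depend on the processing and are no result about the IGF genes. Replicate numbers did not pair the samples, as deviations of libraries with the same number correlated by -0.087 to 0.0997. With a replicate block the counts were 7, 10, 8 and 9 in those comparisons, 5 in place of 6 in E10.5 against early HLBs (Igfbp2 gained, Igf1r and Igfbp4 lost) and 7 in place of 6 in E10.5 HLBs against FLBs (Irs2 gained). The cause of these moves was not tested. Depth limits Igfbp7, which had 2 to 19 reads per library outside Ca.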
